A study of Tupaia belangeri with 2 samples.

Results

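The kinesin motor genes were followed across the cell classes of the embryonic tree shrew brain. A gene was counted as a kinesin when its name in the annotation was KIF or KIFC followed by a number and, where present, a letter from A to C. This held for 37 of the 18543 gene names, and the counts of gene models that share a name were summed. Of these 37 names, 32 had at least 100 UMIs over the cells analysed (a UMI, or unique molecular identifier, marks a single captured transcript). The cells came from the whole brains of 2 embryos of Tupaia belangeri at 4 to 5 postconceptional weeks, after removal of the dura mater and blood vessels, and each embryo gave 1 library of droplet-captured cells made with a 3′ kit of 10x Genomics. The embryos are a single condition without treatment, transgene or sorting, so all comparisons are between classes of cells within the same 2 animals.

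Kinesins are motor proteins that use ATP to move along microtubules or to take microtubule ends apart. In a dividing cell they build the spindle, align and separate the chromosomes and complete cytokinesis. In a neuron, other members of the family carry vesicles, mitochondria and cytoskeletal proteins away from the cell body into the axon and dendrites, while cytoplasmic dynein carries cargo in the opposite direction. A further group works in the assembly and beating of cilia and in Hedgehog signalling, which passes through the primary cilium. In the developing brain the mitotic members are needed for progenitor divisions, and the transport members for growing neurites.

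After barcodes with fewer than 200 detected genes had been left out, 8408 and 9327 cells with 38192755 and 35785697 UMIs remained for embryos 1 and 2. Kinesins made up 0.268% and 0.316% of these UMIs. The cells fell into 17 clusters, 15 of which could be named from marker genes. The named classes were dividing-like cells (2622), radial glia-like cells (1863), nascent inhibitory (1385), inhibitory (3027), cortical excitatory (1057) and midbrain or thalamus excitatory (1736) neuron-like cells, neuron-like cells without a single subtype (2690), and choroid plexus-like, microglia-like, endothelial-like, fibroblast-like and erythroid-like cells. No cluster took the name of neurogenic precursors, astrocytes or oligodendrocyte lineage cells, and there were 157 microglia-like cells. Cluster 5 (1425 cells led by TESC, CDKN1C, DLL3 and PAX3) and cluster 12 (400 cells with HBE1 among its leading genes) stayed unnamed. Kinesins and their partner genes were left out of the genes that shaped the clusters, but the classes were formed from the other genes of the same cells, so a class and its kinesin levels are not independent measurements. The radial glia-like class joins 2 clusters. Cluster 4 is led by genes of DNA replication (MCM3, MCM4, MCM5), and cluster 11 by BCAN, VCAM1 and SLC7A10. Cluster 4 carried 8 markers of radial glia and 2 of dividing cells, and cluster 11 carried 6 markers of radial glia and 2 of astrocytes. In neither cluster was a radial glia marker among the 10 leading genes. Levels are given as UMIs per 1000000 UMIs of a class (CPM). Because 3′ counts also depend on how well each gene's 3′ end is annotated, levels are compared for 1 gene between classes, not between genes.

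By textbook function, 12 of the members were grouped as mitotic, 13 as cargo transport, 2 as acting on microtubule ends and growth, 6 as ciliary and 4 as other. Members with too few UMIs for levels by class were KIF18B (52 UMIs), KIF19 (40), KIF17 (3), KIF12 (1) and KIF25 (0). KIF17 is a dendritic transport motor of neurons. Its 3 UMIs all lay in neuron-like cells, which made up 9895 of the 17735 cells, and are too few to place it. The name KIF19 was shared by 14 gene models on several chromosomes, 2 of which, evm.model.chr7.45 and evm.model.chr16.782, held 23 and 12 of its 40 UMIs, so it is uncertain which gene this name measures. KIF1B is split over 2 adjacent models that held 79.7% and 20.3% of its UMIs. In KIF2A and KIF4A, a single model held 98.5% and 99.9%. KIF5B, KIF13A and KIF21B, which belong to the transport and growth groups in other mammals, have no gene model of that name here, and neither do KIF2B and KIF4B. Counts of these genes, if present under another identifier, were not analysed here.

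Mitotic kinesins were highest in dividing-like cells. Summed over the 12 mitotic kinesins, the level was 3360 and 3274 CPM in dividing-like cells of embryos 1 and 2, against 281 and 275 CPM in radial glia-like cells and 219 and 218 CPM in neuron-like cells. The embryos differed by far less than the classes. To ask which members separate dividing-like from radial glia-like cells, UMI sums per embryo and class were compared with edgeR's quasi-likelihood test, with the embryo as a block and Benjamini-Hochberg adjustment over all 9730 genes tested. All 12 mitotic kinesins were called higher in dividing-like cells at an adjusted p under 0.05, and their median log2 fold change was 4.11. Over all genes tested, 14.7% were called higher and 14.6% lower, with a median log2 fold change of -0.02. The dividing-like class was named from mitotic genes such as TOP2A and MKI67, so the direction of these kinesins is no independent finding, and the sizes are given as a description. Over all kinesins, 15 of 32 tested were called higher and 4 lower. The 4 were KIF1B, KIF5C, KIF6 and KIF9, with log2 fold changes of -0.28 to -0.99. The call of KIF6 was lost without the replicate block (adjusted p = 0.084), with DESeq2 (0.459), in cells with at least 1000 genes (0.0534) and without the highest doublet scores (0.0857).

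KIF18A, which dampens chromosome movements at the metaphase plate, had 214 and 172 CPM in dividing-like cells and 9.58 and 7.17 CPM in radial glia-like cells. Its log2 fold change of 4.58 ± 0.14 (SE of the edgeR fit, n = 2 embryos, edgeR adjusted p = 1.6e-24) was the highest of the family in this comparison. Each SE after a log2 fold change comes from this fit, which shares information on spread over genes. It is not the spread of the 2 embryos. KIF23, the motor of the central spindle and midbody, had 428 and 441 CPM against 22.8 and 21.8 CPM (log2 fold change 4.34 ± 0.09; edgeR adjusted p = 4.2e-29). KIF14, which recruits citron kinase for cytokinesis, had 56.9 and 59.4 CPM against 2.51 and 4.10 CPM, and KIF20A, another motor of cytokinesis, 51.4 and 45.3 CPM against 2.96 and 2.82 CPM. In all 4 both dividing-like levels lay above both radial glia-like levels. The radial glia-like levels rest on 11 and 16 UMIs for KIF14 and on 13 and 11 UMIs for KIF20A. The share of all genes that stand apart in this way, here and for the members below, was not counted.

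KIF11, the bipolar motor that pushes spindle poles apart, had 244 and 243 CPM in dividing-like and 13.7 and 15.9 CPM in radial glia-like cells (17.2-fold). KIF15, which shares that role with KIF11, had 201 and 207 CPM against 23.7 and 19.5 CPM (9.81-fold). KIF4A, a chromosome-bound motor, had 319 and 288 CPM against 18.9 and 16.1 CPM, and KIF22, which moves chromosome arms, 610 and 623 CPM against 55.6 and 49.4 CPM. KIF2C, which depolymerizes microtubules at kinetochores, had 165 and 144 CPM against 8.89 and 9.22 CPM. KIFC1, a minus-end motor that focuses spindle poles, had 279 and 280 CPM against 18.0 and 24.3 CPM. The classes stood apart in both embryos for each of these genes. KIF18B had 26 and 19 UMIs in dividing-like cells and 2 and 0 UMIs in radial glia-like cells. It passed the edgeR test (adjusted p = 0.00065) but not DESeq2 (adjusted p = 0.216), and no fold change is given for it. Nor was it called in cells with at least 1000 genes, with 30 components or with cluster 11 alone as radial glia. Against neuron-like cells all 12 mitotic kinesins were again called higher, from KIF20B (log2 fold change 2.46 ± 0.04) to KIF2C (6.94 ± 0.14), beside a background of 35.2% of genes higher and 31.7% lower. KIF18B was not called there in cells with at least 1000 genes or with 30 components. The size for KIF2C rests on few counts, with 26 and 24 UMIs in all neuron-like cells and 0 and 3 UMIs in nascent inhibitory ones. In that comparison 52.6% of all calls were in the higher direction, or 37.4% with library totals in place of TMM scaling.

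**Figure D1:**
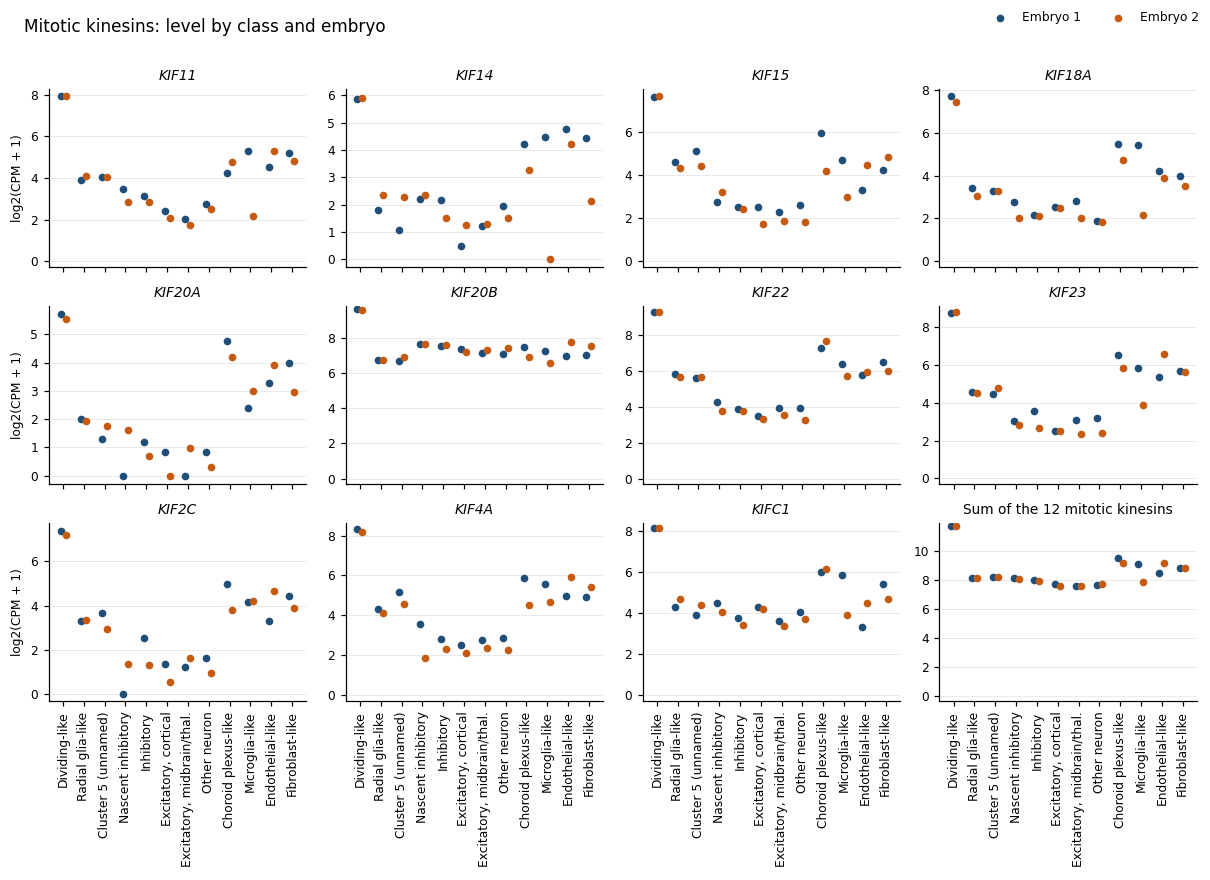
Level of each mitotic kinesin with at least 100 UMIs, and the sum of all 12, on the vertical axis as log2(CPM + 1), in 12 classes of cells on the horizontal axis, with a point per embryo. Points are highest in dividing-like cells in every panel, while KIF20B shows the flattest profile over the other classes, for example 182 and 192 CPM in inhibitory neuron-like cells.

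Outside dividing-like cells the mitotic kinesins were not equally low. Neuron-like cells held 1.12% (KIF2C) to 4.77% (KIFC1) of the dividing-like level for the other 10 members with at least 100 UMIs, and 2.14% for the sum of all mitotic kinesins without KIF20B. The 12 marker genes of dividing cells, measured in the same way, stood at 1.84%. KIF20B, a motor of cytokinesis that has also been linked to the polarity of young neurons, stood at 21.1% (19.7% in embryo 1 and 22.4% in embryo 2). Its level was 788 and 767 CPM in dividing-like cells, 104 and 105 CPM in radial glia-like cells and 156 and 172 CPM in all neuron-like cells together. Within the neuron-like classes it was 199 and 201 CPM in nascent inhibitory, 182 and 192 CPM in inhibitory, 160 and 147 CPM in cortical excitatory, 137 and 153 CPM in midbrain or thalamus excitatory and 133 and 169 CPM in the remaining neuron-like cells. Every neuron-like class exceeded radial glia-like cells in both embryos.

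In the test of neuron-like against radial glia-like cells, KIF20B was the only mitotic kinesin called higher (log2 fold change 0.49 ± 0.07, edgeR adjusted p = 1.3e-07), while 10 were called lower and KIF18B did not pass (adjusted p = 0.16). The background in this comparison was 28.9% of genes called higher and 33.7% called lower, so that 46.2% of calls were higher, or 57.9% with library totals. With embryo 1 or embryo 2 alone the log2 fold change of KIF20B was 0.44 and 0.53, and over all alternatives tried it lay between 0.30 and 1.04. Among neuron-like cells without a UMI of the 12 dividing markers, KIF20B was at 149 and 171 CPM, or 20.6% of its dividing-like level. This alternative was chosen after seeing the data. The paralogue KIF20A was at 1.09% of its own level there, on 4 and 4 UMIs. The sum of mitotic kinesins without KIF20B was at 1.76%, on 292 and 412 UMIs. KIF20B UMIs were also found in other classes. Choroid plexus-like (176 and 120 CPM), microglia-like (149 and 93.3 CPM), endothelial-like (123 and 217 CPM) and fibroblast-like cells (126 and 182 CPM) had levels in the same range, with wider gaps between embryos in these small classes, and erythroid-like cells had 9.95 and 13.6 CPM. KIF20B took 6249 of 26629 and 5101 of 21759 mitotic kinesin UMIs in dividing-like cells, but 1917 of 2691 and 2987 of 3787 in neuron-like cells. The level of free RNA in the droplets was not measured, and its part in any of these levels was not tested.

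**Figure D2:**
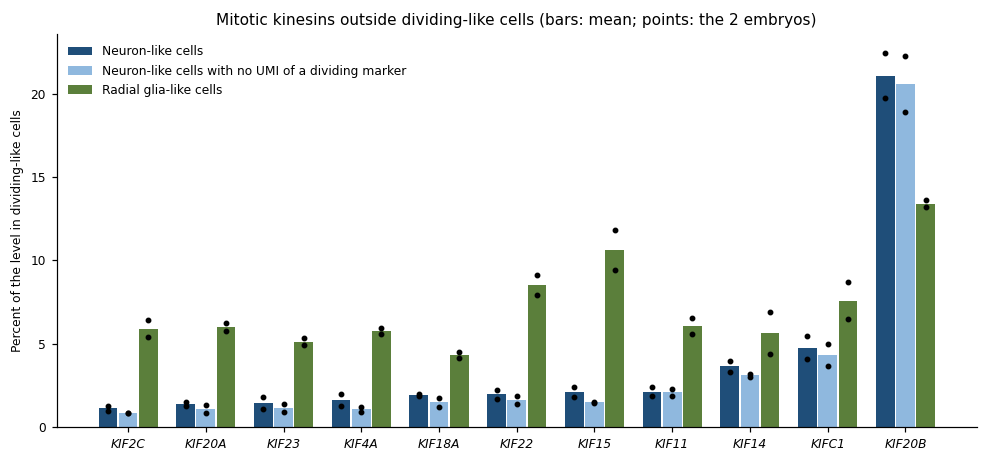
Level of each mitotic kinesin in neuron-like cells, in neuron-like cells with no UMI of a dividing marker and in radial glia-like cells, on the vertical axis as percent of its level in dividing-like cells; bars are means and points the 2 embryos. The KIF20B bars stand at 21.1%, 20.6% and 13.4%, and the next bar in neuron-like cells is KIFC1 at 4.77%.

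The other mitotic kinesins ran from radial glia-like to neuron-like cells in the opposite direction. KIF2C was lower in neuron-like cells by 2.78 ± 0.31 on the log2 scale, KIF15 by 2.53 ± 0.18, KIF22 by 2.31 ± 0.11, KIF20A by 2.28 ± 0.49 and KIF23 by 2.09 ± 0.17. The size for KIF20A rests on 8 and 12 UMIs in all neuron-like cells and 13 and 11 UMIs in radial glia-like cells. Neither embryo alone gave a fold change for KIF20A, since a neuron-like class was without UMIs in each. KIFC1 and KIF14 were lower by 0.83 ± 0.14 and 0.94 ± 0.35. With embryo 1 or embryo 2 alone, the log2 fold change was -0.43 and -1.19 for KIFC1 and -0.66 and -1.24 for KIF14. With library totals KIF14 did not pass (edgeR adjusted p = 0.0547). The clusters of radial glia-like cells differed here: the sum of mitotic kinesins without KIF20B was 202 and 202 CPM in cluster 4 and 82.3 and 82.4 CPM in cluster 11. With cluster 11 alone as radial glia, an alternative chosen after seeing the data, KIF11, KIF14, KIF18A, KIF20A, KIF23, KIF2C and KIFC1 no longer passed, whereas KIF15, KIF22 and KIF4A still did, and KIF20B rose to a log2 fold change of 1.04. The S phase genes used as a score summed to 2482 and 2407 CPM in radial glia-like and 2430 and 2836 CPM in dividing-like cells, so this score did not separate the classes, whereas the G2/M genes summed to 5826 and 6277 against 28427 and 28210 CPM.

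Dividing-like cells were also ordered by their balance of G2/M over S phase transcripts. For each cell the UMIs of G2/M genes were taken as a share of the UMIs of S and G2/M genes, with no kinesin or partner gene in either list, and the cells of each embryo were split by this share into 3 groups of 386 to 483 cells (low, middle and high). The fixed ranges planned for this share could not be used, because the lowest held 0 cells in both embryos, so this split was chosen after seeing the data. The limits between the groups were 88.3% and 95.5% in embryo 1 and 86.7% and 94.7% in embryo 2, so that even the low group holds cells weighted towards G2/M genes by this score. It is a range of a score and not a cell type, and 100 and 66 cells lay within 1 percentage point of the lower limit, and 207 and 125 of the upper. The summed level of the mitotic kinesins was 2054 and 2000 CPM in the low, 3150 and 2943 CPM in the middle and 5086 and 5037 CPM in the high group. All 12 were called higher in the high than in the low group (7547 genes tested, of which 12.1% were called higher and 13.9% lower), with a median log2 fold change of 1.58. The groups were formed from other mitotic genes of the same cells, so this direction is no independent finding.

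The steepness differed between the 11 members with at least 100 UMIs. KIF18B was not ranked, and its call between these groups was lost with DESeq2. KIF14 moved from 21.6 and 26.2 CPM to 99.9 and 103 CPM (log2 fold change 2.09 ± 0.15; edgeR adjusted p = 2.6e-14). KIF20A moved from 25.4 and 17.8 CPM to 90.7 and 88.0 CPM (2.03 ± 0.16 on the log2 scale), KIF18A from 94.0 and 71.1 CPM to 358 and 316 CPM (2.02 ± 0.09), and KIF20B from 384 and 390 CPM to 1328 and 1290 CPM (1.75 ± 0.05). KIF2C, KIF23, KIFC1 and KIF4A followed with log2 fold changes of 1.62 ± 0.09, 1.54 ± 0.06, 1.40 ± 0.07 and 1.15 ± 0.07. At the shallow end, KIF11 moved by 0.96 ± 0.07, KIF22 by 0.72 ± 0.05 and KIF15 by 0.45 ± 0.08. KIF15 was at 176 and 167 CPM in the low group already, against 223 and 250 CPM in the high group. The spindle pole motors KIF11 and KIF15 were thus among the 3 smallest changes, but the difference between genes was not tested.

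**Figure D3:**
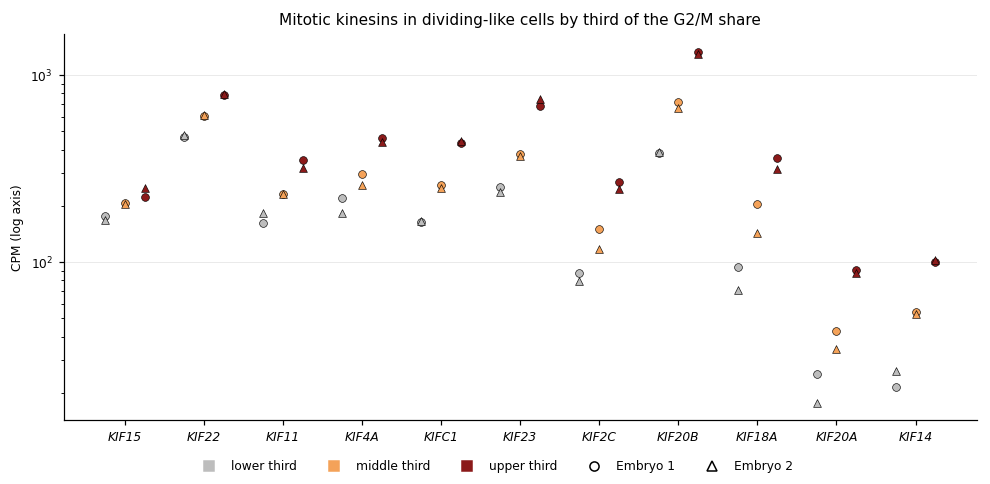
Level in CPM (log axis) of 11 mitotic kinesins in dividing-like cells of the low, middle and high group of the G2/M share (grey, orange and red), with circles for embryo 1 and triangles for embryo 2. From left to right the genes are ordered by their log2 fold change, from 0.45 for KIF15 to 2.09 for KIF14, and the high group lies above the low group for every gene in both embryos.

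Of 16 spindle partners (proteins that work with these motors), 15 were called higher in dividing-like than in radial glia-like cells, with a median log2 fold change of 4.43, beside 14.7% of all genes called higher. AURKB, the kinase of the chromosomal passenger complex, and CENPE, a kinetochore motor that the name rule leaves out, each changed by 5.08. PRC1, which bundles the midzone microtubules on which KIF4A and KIF23 act, changed by 4.06 and RACGAP1, the binding partner of KIF23, by 3.55. NUMA1, which anchors dynein at spindle poles, did not pass (log2 fold change 0.36). From the low to the high G2/M group all 16 were called higher (median 1.98), beside 12.1% of all genes. As for the kinesins, classes and groups were formed from other mitotic genes of the same cells. ASPM, a spindle pole protein required for brain size, changed by 2.81 and RACGAP1 by 1.01.

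Cargo transport kinesins had the reverse pattern. Summed over this group, the level was 2329 and 2286 CPM in neuron-like cells, 1029 and 1072 CPM in radial glia-like cells and 883 and 915 CPM in dividing-like cells. Of 11 members tested, 9 were called higher in neuron-like than in radial glia-like cells and 1 lower, with a median log2 fold change of 1.19. The background was 28.9% higher and 33.7% lower. Against dividing-like cells, 10 of the 11 were called higher in neuron-like cells and 1 lower, beside a background of 31.7% of genes higher in neuron-like and 35.2% higher in dividing-like cells. Among the 10, KIF13B lost its call with DESeq2 (adjusted p = 0.110), at resolution 1.0 (edgeR adjusted p = 0.478) and with 30 components (edgeR adjusted p = 0.0930).

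The kinesin-1 heavy chains KIF5A and KIF5C, which move vesicles and mitochondria along axons, differed in how steeply they rose. KIF5A was at 82.8 and 82.7 CPM in neuron-like cells, 2.74 and 5.12 CPM in radial glia-like and 3.41 and 3.91 CPM in dividing-like cells. Its log2 fold change from radial glia-like to neuron-like cells was 3.93 ± 0.19 (15.2-fold, edgeR adjusted p = 2.1e-19), the highest of all kinesins. It passed in all 10 alternatives that gave a test. With embryo 1 or embryo 2 alone this log2 fold change was 4.47 and 3.49. KIF5C was at 983 and 939 CPM in neuron-like cells, 407 and 426 CPM in radial glia-like and 333 and 323 CPM in dividing-like cells (log2 fold change from radial glia-like to neuron-like cells 0.83 ± 0.04). KIF5C was thus present in dividing-like and radial glia-like cells, and KIF5A was low there. Over all alternatives tried, the KIF5C log2 fold change from radial glia-like to neuron-like cells lay between 0.31 and 1.11. KIF5C passed in all 10 alternatives that gave a test. Per 100 UMIs of KIF5C there were 1.02 and 1.21 UMIs of KIF5A in dividing-like, 0.673 and 1.20 in radial glia-like and 8.43 and 8.81 in neuron-like cells.

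KIF3A and KIF3B form the kinesin-2 motor that serves both cilia and axons, and KIF3C can replace KIF3B in its neuronal form. KIF3A had 482 and 496 CPM in neuron-like against 147 and 177 CPM in radial glia-like cells (log2 fold change 1.36 ± 0.05; edgeR adjusted p = 6.9e-23). KIF3B had 47.5 and 49.2 CPM against 18.0 and 19.2 CPM (1.13 ± 0.12 on the log2 scale), and KIF3C had 28.0 and 32.1 CPM against 6.38 and 5.64 CPM (2.08 ± 0.17). Per 100 UMIs of KIF3B there were 31.2 and 38.1 UMIs of KIF3C in dividing-like, 35.4 and 29.3 in radial glia-like and 59.0 and 65.2 in neuron-like cells, and among the neuron-like classes the ratio was highest in nascent inhibitory cells (102 and 96.1). KIF3A was also called higher in dividing-like than in radial glia-like cells (log2 fold change 0.36 ± 0.06), but not when cluster 11 alone stood for radial glia (0.11).

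KIF1A, the main motor of synaptic vesicle precursors, had 124 and 114 CPM in neuron-like against 40.1 and 32.3 CPM in radial glia-like cells (log2 fold change 1.44 ± 0.08; edgeR adjusted p = 6.5e-17). KIF1B, whose products carry mitochondria and synaptic vesicle precursors, had 549 and 538 CPM against 381 and 375 CPM (0.27 ± 0.04 on the log2 scale). This call turned with the choice of radial glia: against cluster 11 alone, where KIF1B was at 678 and 543 CPM, it was lower in neuron-like cells (log2 fold change -0.24, edgeR adjusted p = 0.0011). KIFC2 and KIFC3, which move towards microtubule minus ends, had 9.26 and 8.88 CPM against 3.19 and 2.56 CPM and 3.57 and 2.42 CPM against 0.684 and 0.769 CPM. Both were called higher (log2 fold change 1.19 ± 0.28 and 1.78 ± 0.56) and neither against cluster 11 alone. KIF13B, a transporter of signalling membrane proteins, did not pass (10.4 and 12.5 CPM against 7.52 and 10.2 CPM). KIF16B, an endosome motor, was the member called lower in neuron-like cells, at 8.61 and 9.92 CPM against 13.5 and 14.6 CPM (log2 fold change -0.95 ± 0.18). KIF1C, with 122 UMIs in all, was left out of the reported test by the filter on genes. Without that filter, and at resolution 1.0 of the clustering, it was called lower in neuron-like than in radial glia-like cells. It had 13.2 and 42.1 CPM in endothelial-like cells (3 and 12 UMIs) and 14.7 and 6.85 CPM in fibroblast-like cells (5 and 2 UMIs).

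**Figure D4:**
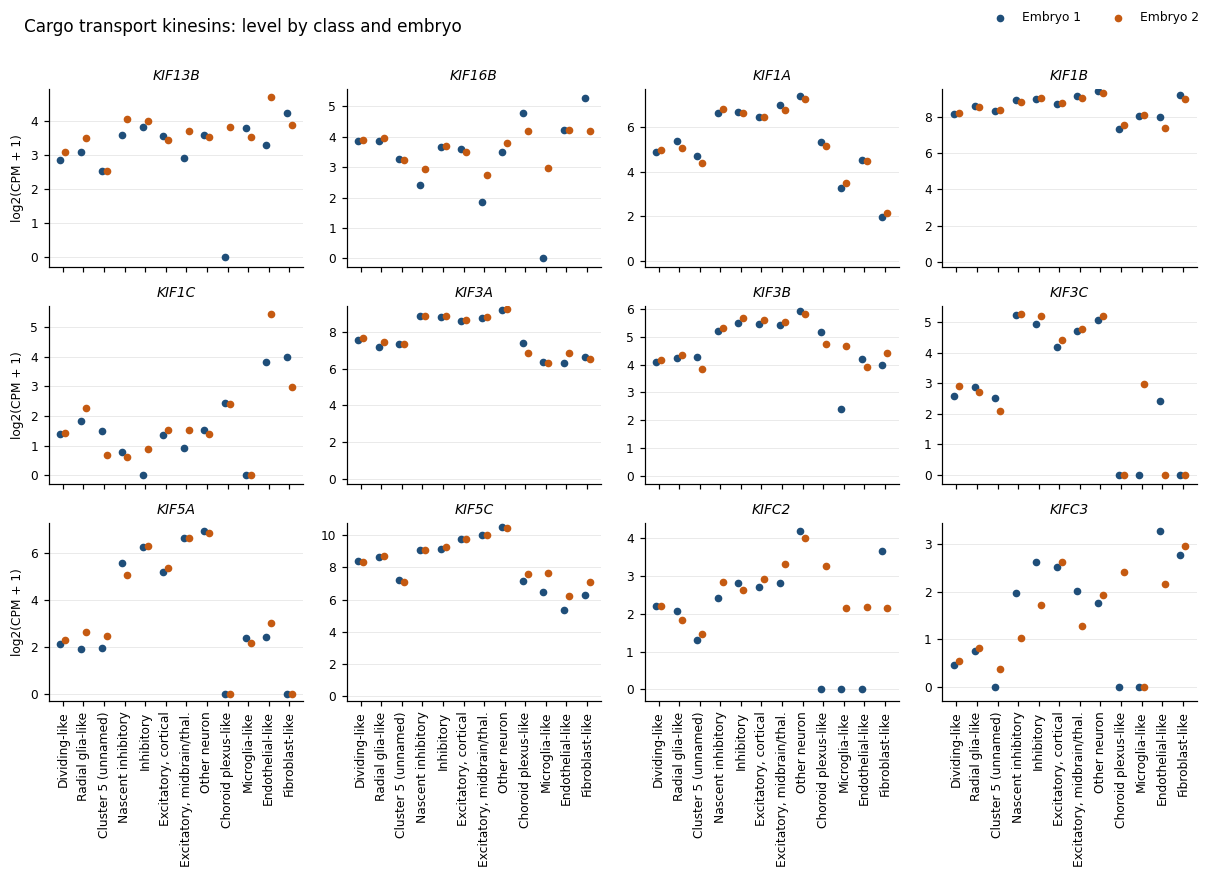
Level of each cargo transport kinesin with at least 100 UMIs, on the vertical axis as log2(CPM + 1), in 12 classes of cells on the horizontal axis, with a point per embryo. KIF5A, KIF3A, KIF3B, KIF3C and KIF1A step up between the dividing-like and radial glia-like classes and the neuron-like classes, while KIF16B is lower in most neuron-like classes than in radial glia-like cells. KIF5A lies at 82.8 and 82.7 CPM in neuron-like cells and at 2.74 and 5.12 CPM in radial glia-like cells.

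The dividing-like and radial glia-like clusters and the unnamed cluster 5 differed in KIF5C, which was noted after its values were seen and is given without a test. It was at 149 and 137 CPM in cluster 5 and 189 and 168 CPM in dividing-like cluster 9 (PGM5 as leading gene), against 332 and 346 CPM in radial glia-like cluster 4, 395 and 387 CPM in dividing-like cluster 2 and 692 and 646 CPM in cluster 11. The embryos kept the same order. In both embryos KIF5C in cluster 11 lay above its level in inhibitory and nascent inhibitory neuron-like cells. It lay below its level in the other neuron-like classes. KIF21A was between 471 and 625 CPM in these 5 clusters, and KIF1B between 273 and 348 CPM in all but cluster 11. KIF5A was low in all 5 of these clusters, from 1.25 to 9.70 CPM.

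The partners of cargo transport moved with these motors in part. Of 20 cargo partners tested, 13 were called higher in neuron-like than in radial glia-like cells and 2 lower, with a median log2 fold change of 0.57, beside 28.9% of all genes called higher and 33.7% lower. The kinesin light chains KLC1, KLC2 and KLC4, which bind cargo to kinesin-1, were higher by 0.99, 1.31 and 1.53 on the log2 scale. KIFAP3, the subunit that joins KIF3A and KIF3B, was higher by 1.02, close to the changes of these motors, and MADD, an adaptor of KIF1A and KIF1B, by 1.68. MAPK8IP1 and FEZ2 were lower, with log2 fold changes of -0.54 and -0.78. Of 19 dynein and dynactin genes tested, 14 were called higher and 2 lower (median 0.66), beside the same background. NDE1 and its paralogue NDEL1, both regulators of dynein, went in opposite directions, with log2 fold changes of -2.49 and 1.30. NDE1 was also higher in dividing-like than in radial glia-like cells (1.77 on the log2 scale). DYNC1I1, DYNC1LI1 and ACTR1A were not analysed here.

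**Figure D5:**
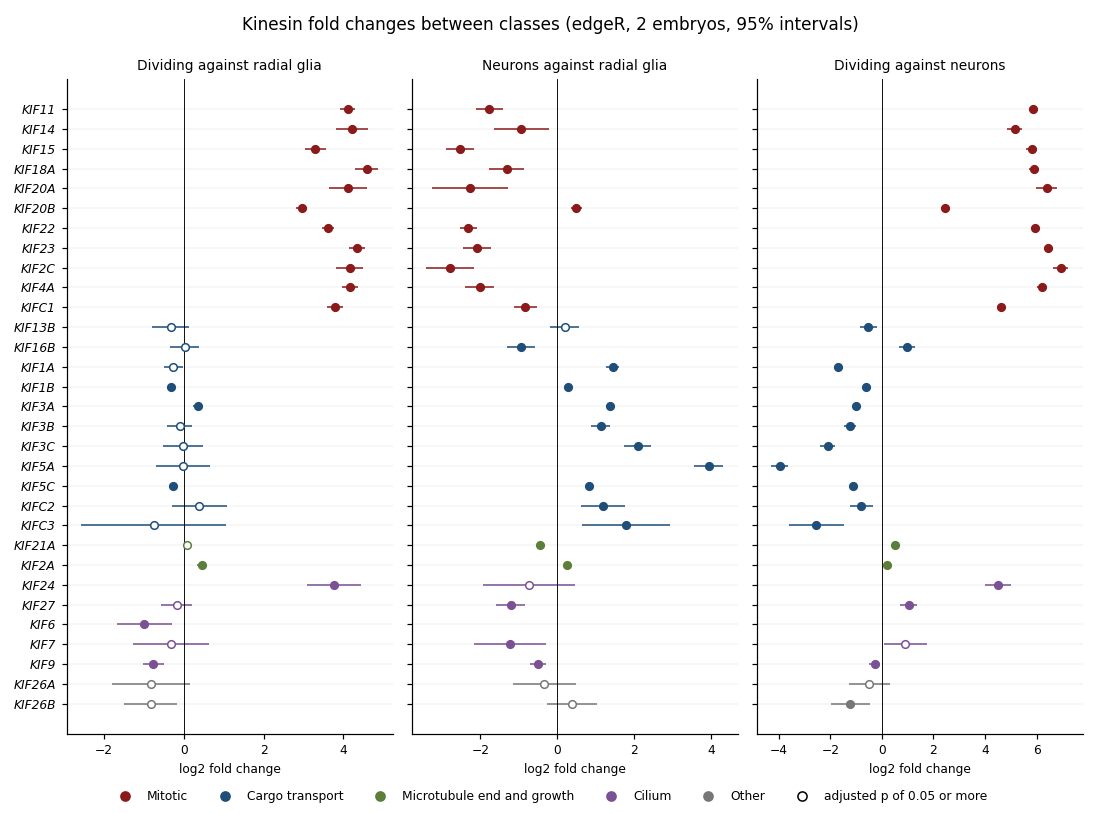
Log2 fold change of 31 kinesins (rows, coloured by role) in 3 comparisons, with points for the edgeR estimate and lines for its 95% interval; open points have an adjusted p of 0.05 or more. Genes with no UMI in a class of the comparison have no point there. Mitotic kinesins lie to the right of 0 in both comparisons of dividing-like cells, and KIF20B at 0.49 is the only mitotic kinesin to the right of 0 in neuron-like against radial glia-like cells.

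Among neuron-like classes the differences were smaller. Between inhibitory and nascent inhibitory neuron-like cells, 6 kinesins were called higher and 3 lower of 32 tested, beside a background of 11.5% higher and 10.4% lower. KIF5A was at 76.6 and 78.2 CPM in inhibitory and 46.5 and 32.3 CPM in nascent inhibitory cells (log2 fold change 1.03 ± 0.16; edgeR adjusted p = 6.2e-06), and this call held in each alternative. KIF2A was lower, at 362 and 391 CPM against 521 and 511 CPM (log2 fold change -0.43 ± 0.06), a call lost at resolution 1.0 of the clustering. KIF26B was at 6.45 and 3.96 CPM against 0.727 and 0.513 CPM, the latter from 1 UMI in each embryo. With 30 principal components KIF26B had a log2 fold change of 0.46 and did not pass. KIF9 was also called higher, but not with 30 components. KIFC1 and KIF6 (0 UMIs against 5) were called lower. KIFC1 was not called without the replicate block, with DESeq2 or in cells with at least 1000 genes, and KIF6 was not called in 4 alternatives. The call of KIF5C (576 and 615 CPM against 530 and 546 CPM) was lost in 4 alternatives and turned with 30 principal components (log2 fold change -0.41), and KIF1B and KIF16B lost theirs in several.

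Between cortical and midbrain or thalamus excitatory neuron-like cells, 3 kinesins were called higher and 5 lower of 32 tested, beside a background of 11.8% higher and 11.1% lower. Of all calls 51.6% were higher, or 34.8% with library totals. The leading genes of the cortical cells included EOMES, which is also on the marker list of neurogenic precursors. The part of such cells in these differences was not tested. KIF26B, which acts in cell adhesion and signalling and has lost motor activity, was at 9.08 and 11.2 CPM in cortical against 47.0 and 45.3 CPM in midbrain or thalamus cells (log2 fold change -2.07 ± 0.21; edgeR adjusted p = 8.7e-10), the level in the latter being the highest of any class. KIF5A was at 35.1 and 40.6 CPM against 98.0 and 98.8 CPM (log2 fold change -1.27 ± 0.15), whereas KIF5C was at 852 and 867 CPM against 1013 and 1035 CPM (log2 fold change -0.13 ± 0.05), a call that was lost in 4 alternatives and turned to 0.024, without passing, at resolution 1.0. Per 100 UMIs of KIF5C, cortical cells held 4.12 and 4.68 UMIs of KIF5A and midbrain or thalamus cells 9.67 and 9.54. KIF16B (11.1 and 10.3 CPM against 2.61 and 5.73 CPM) and KIFC1 (18.2 and 16.8 CPM against 10.9 and 9.06 CPM) were higher in cortical cells. KIF24 also passed, on 3 and 4 UMIs against 0 and 1, but not in 4 alternatives, DESeq2 among them. KIF1A and KIF1B were called lower, with log2 fold changes of -0.30 and -0.24. KIF1A lost its call in 4 alternatives and KIF1B in 2, and both lost it without the replicate block and at resolution 1.0. Neuron-like cells without a single subtype had the highest levels of KIF5C (1466 and 1424 CPM), KIF5A (123 and 116 CPM), KIF1A (171 and 153 CPM) and KIF3A (600 and 618 CPM).

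The members acting on microtubule ends and growth were KIF21A and KIF2A. KIF21A, a growth-dampening motor of the axonal cortex, was between 324 and 550 CPM in each neuron-like, radial glia-like and dividing-like class of either embryo. It was called lower in neuron-like than in radial glia-like cells (398 and 466 CPM against 500 and 526 CPM; log2 fold change -0.44 ± 0.04). KIF2A, a microtubule depolymerase of spindles and axon branches, was at 406 and 443 CPM in dividing-like, 330 and 318 CPM in radial glia-like and 444 and 434 CPM in neuron-like cells. It was called higher in dividing-like than in radial glia-like cells (log2 fold change 0.44 ± 0.05). Its call against neurons (log2 fold change 0.18) turned to -0.055 with library totals in place of TMM scaling. From the low to the high G2/M group KIF2A was lower by 0.34 ± 0.06, while its paralogue KIF2C was higher. Per 100 UMIs of KIF2A there were 40.7 and 32.5 UMIs of KIF2C in dividing-like cells and 0.476 and 0.319 in neuron-like cells. In choroid plexus-like, microglia-like, endothelial-like and fibroblast-like cells KIF21A was at 35.3 to 129 CPM.

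The ciliary members split into 3 patterns. KIF24, which restrains cilium assembly at the centriole, ran with the mitotic kinesins, at 14.9 and 13.4 CPM in dividing-like against 0.912 and 1.28 CPM in radial glia-like cells (log2 fold change 3.76 ± 0.34; edgeR adjusted p = 2.7e-11). It did not pass between the low and high G2/M groups (13.4 and 14.0 CPM against 17.2 and 14.4 CPM; edgeR adjusted p = 0.60). KIF9, a motor of motile cilia, was at 50.2 and 61.7 CPM in radial glia-like, 33.3 and 29.3 CPM in dividing-like and 56.1 and 53.3 CPM in neuron-like cells. Choroid plexus-like cells had 453 and 688 CPM (103 and 160 UMIs), and KIF27, a relative of the Hedgehog regulator KIF7, had 61.6 and 47.3 CPM there (14 and 11 UMIs) against 16.6 and 17.9 CPM in radial glia-like cells. The 5 measured ciliated ependyma markers summed to 269 and 516 CPM in choroid plexus-like cells and to at most 35.1 CPM in each other class, and their part in the KIF9 level was not tested.

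Among radial glia, cluster 11 had more KIF9 (76.8 and 118 CPM) and KIF27 (35.1 and 24.2 CPM) than cluster 4 (43.2 and 41.4 CPM, and 11.8 and 15.7 CPM). KIF27, KIF7 and KIF9 were called lower in neuron-like than in radial glia-like cells, with log2 fold changes of -1.22 ± 0.19, -1.24 ± 0.46 and -0.50 ± 0.10. These contrasts weight the 5 neuron-like classes equally. The pooled levels of KIF9 in neuron-like and radial glia-like cells overlapped between embryos. Among neuron-like classes they ran from 18.9 and 26.7 CPM in nascent inhibitory cells to 91.9 and 88.6 CPM in neuron-like cells without a single subtype, and the call of KIF9 was lost at resolution 1.0 (adjusted p = 0.0538). KIF6, a further motor of motile cilia, had 20 and 32 UMIs in radial glia-like cells (4.56 and 8.20 CPM) and 0 UMIs in inhibitory neuron-like cells of both embryos. It was called lower in neuron-like cells (edgeR adjusted p = 1.1e-09) without a fold change, since a class stood at 0. KIF7 rested on 117 UMIs in all and lost its call with DESeq2 (adjusted p = 0.0989). It was also not called in cells with at least 1000 genes, with 30 components or with cluster 11 alone as radial glia. KIF26A, which like KIF26B has lost motor activity, was at 2.68 and 2.88 CPM in neuron-like and 3.19 and 1.79 CPM in radial glia-like cells. It passed in none of the 5 class comparisons, and the G2/M groups were not tested for it. In cortical against midbrain or thalamus cells (adjusted p = 0.0536) it was called lower in 4 alternatives, and in inhibitory against nascent inhibitory cells (0.054) with 30 components.

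Summed over all 37 names, kinesins were at 1162 to 2235 CPM in microglia-like, endothelial-like, fibroblast-like and choroid plexus-like cells, against 2223 and 2291 CPM in radial glia-like, 3476 and 3489 CPM in neuron-like and 5218 and 5249 CPM in dividing-like cells. In erythroid-like cells, where haemoglobin and other erythroid markers took up most of the UMIs, the level was 164 and 163 CPM. Mitotic kinesins without KIF20B were at 387 and 142 CPM in microglia-like cells, and the dividing markers there were also uneven between embryos (2315 and 836 CPM). KIF5A and KIF3C had 0 UMIs in choroid plexus-like and fibroblast-like cells of both embryos, which at 3 counts allows up to 13.2 and 12.9 CPM in choroid plexus-like cells.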

How the data were processed

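Single-cell RNA sequencing was performed on 2 whole embryonic brains with 1 library each. Per the labels and the methods, the authors checked read quality with fastp, ran Cell Ranger 3.1.0 (count, default parameters) against the TS_2.0 assembly and its annotation, and used Seurat 3 afterwards. They deposited raw UMI counts per gene model and barcode, without normalization. The 9241 and 9685 barcodes deposited are the cell numbers given in the study's methods, while its results text gives a larger total. The deposited counts give no coordinates or sequences, so none are printed. Total counts were 41868023 and 38077767, and 18 barcode sequences occurred in both libraries. Gene counts of the libraries were not those of a single library deposited again (chi-square statistic divided by its degrees of freedom, 243). Intervals and the limit of 3 counts cover counting error only.

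Counts were read in Python 3.11.15, scaled to 10000 per cell, log-transformed, reduced to 20 principal components of 2000 variable genes and partitioned with leidenalg 0.10.2 (20 neighbours, resolution 0.5). A cluster took the name of the type with most markers (at least 3, detected in 10% of cells and 2 times higher than elsewhere). If markers of a different type were more frequent among its 10 top genes, no name was given. Neurons without a single subtype became a class only once the clusters were known. Doublets were kept. Scrublet (scanpy 1.11.5) called 210 and 0 cells, and as an alternative the 566 and 696 highest scores were left out.

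UMI sums per embryo and class (14 sums of 7 classes) went into edgeR's quasi-likelihood test (edgeR 4.0.16, R 4.3.3) with TMM scaling, filterByExpr, the embryo as a block and Benjamini-Hochberg adjusted p below 0.05. The common dispersion gave a coefficient of variation of 0.0320, which is what remained after the embryo block. Classes of 1 embryo come from the same animal. Their deviations correlated with r of 0.488 to 0.625 over 21 pairs of classes and 2743 genes. Contrasts of neuron-like cells give each of the 5 neuron classes equal weight, whereas levels in all neuron-like cells pool their UMIs. With n = 2 embryos, p-values set differences between classes against the variation left between these 2 libraries after the block, moderated over genes. The block takes out the shift that all classes of an embryo share. The p-values therefore do not cover that part of the spread between animals, and the remainder rests on 2 embryos. The procedure was also run on simulated counts drawn independently for each class and embryo, with no embryo effect. That run does not cover the correlated deviations given above. Each kinesin was accounted for, and those named in a comparison were members of the role lists and up to 8 called members each way. The members, lists and tests were chosen with earlier results of these data known. Alternatives were RLE factors, library totals, no filter, no replicate block, DESeq2 1.42.0, at least 1000 genes per cell, resolution 1.0, 30 components, means over cells and each embryo alone.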

Additional observations from a re-analysis of the deposited data

Results flagged for a closer look

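Choroid plexus-like cells were in none of the tested comparisons, and 2 kinesins stood above every tested class there, in that the lower 95% Poisson bound in each embryo exceeded the upper bound in all tested classes. KIF9 averaged 571 ± 166 CPM (SD, n = 2 embryos), and the highest tested class was neuron-like cells without a single subtype, at 90.3 CPM. KIF27 averaged 54.5 ± 10.2 CPM, against 17.3 CPM in radial glia-like cells. These bounds cover counting error only, and the difference was not tested over embryos. Barcodes with fewer than 200 detected genes, which were left out, held 448 kinesin UMIs.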

How the results depend on the processing

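Alternatives that gave a test were counted for kinesins with a fold change there and in the reported test. These lost a call 63 times and gained one 29 times while keeping their sign, and 7 times changed sign where a call was made. Kinesins with a class without UMIs, or without an adjusted p in either test, are not in these counts. Further calls were lost or gained among them, such as those of KIF6 in inhibitory against nascent inhibitory cells. Values never called also changed sign in places. Without a replicate block, all genes called higher and lower numbered 898 and 750 (1434 and 1424 with it) in dividing-like against radial glia-like cells, 739 and 655 (1115 and 1010) in inhibitory against nascent inhibitory, 705 and 694 (1150 and 1077) in cortical against midbrain or thalamus, and 454 and 511 (916 and 1052) in the high against the low G2/M group. With DESeq2 they were 886 and 626, 654 higher in the inhibitory comparison, 744 and 633, and 370 and 422. Kinesins called lower in cortical cells numbered 5 in the reported test, but 2 without the replicate block, 3 with DESeq2 and 3 at resolution 1.0. Kinesins called lower in the high G2/M group numbered 3 in the reported test, but 1 without the replicate block, with DESeq2 and in cells with at least 1000 genes, where KIF21A and KIF5C were lost. For inhibitory against nascent inhibitory cells, kinesins called higher numbered 3 with DESeq2 and 1 with 30 components (6 in the reported test), and those called lower 1 in cells with at least 1000 genes and 7 with 30 components (3 in the reported test). With cluster 11 alone as radial glia (415 of the 1863 radial glia-like cells), 8 kinesins were lower in dividing-like cells (4 in the reported test) and 9 in neuron-like cells (16 in the reported test). The median log2 fold change of the mitotic kinesins was then 5.09 and that of the cargo kinesins 0.67. Kinesin counts for cluster 11 alone, resolution 1.0, 30 components and at least 1000 genes stand without the share of all genes called. They are therefore not read as particular to kinesins. The mitotic median was 4.27 without the highest Scrublet scores, and 3.94 to 4.16 leaving out an embryo. The cargo median from radial glia-like to neuron-like cells was 1.36 with library totals, 1.28 at resolution 1.0 and 1.40 with 30 components. The mitotic level in dividing-like cells was 3601 CPM without the highest Scrublet scores and 3539 CPM as a mean over cells, which gave 2365 CPM for cargo kinesins and 180 CPM for KIF20B in neuron-like cells. The reversed log2 fold changes were -0.055 for KIF2A (dividing-like against neuron-like, library totals), -0.24 for KIF1B (neuron-like against cluster 11 alone) and 0.024 for KIF5C (cortical against midbrain or thalamus, resolution 1.0). In inhibitory against nascent inhibitory cells they were 0.28 for KIF1A at resolution 1.0 and, with 30 components, -0.15 for KIF3A, -0.41 for KIF5C and -0.072 for KIF9. The causes were not tested. Library totals moved the median of all genes by -0.24, 0.18 and -0.12 in dividing-like against neuron-like, neuron-like against radial glia-like and cortical against midbrain or thalamus cells. Leaving out an embryo left no replicate, so those values carry no test, and the planned fixed G2/M ranges were not run. Depth limits KIF18B, KIF7, KIF6 and KIF24 outside the class where each was highest.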
